A study of Mus musculus with 10 samples.

Results

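A set of 42 genes of striated muscle was followed in the esophagus of mice with experimental eosinophilic esophagitis. They encode the contractile proteins of the sarcomere, the proteins that move calcium in the muscle fiber, and a few muscle enzymes and regulators, and all of them were found by symbol among the 54446 genes of the deposited table. By the fiber type or stage for which each gene is best known, 14 are fast, 11 are slow, 3 are developmental and 10 are shared by all fibers, with 2 atrophy genes and 2 myogenic factors. Polyadenylated RNA of whole esophagus was read by CEL-Seq, a method that primes at the tail of the transcript, in 10 libraries. Every mouse was wild type and of strain C57BL/6. One group of 5 libraries, A1 to A5, came from vehicle-treated controls, and the other group of 5, C1 and D1 to D4, came from mice given the hapten oxazolone (OXA). The sources used here do not give age, sex, dose, duration or whether each library is 1 animal, so a p-value here reflects only how much the 10 libraries vary, which may be technical. Nor do they say what the library letters mean, and because no letter occurs in both groups, letter and treatment cannot be told apart.

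The muscle coat of the mouse esophagus is largely striated, unlike the smooth muscle of the intestine, and its fibers carry sarcomeres of the same plan as limb muscle. In a sarcomere, myosin heavy chains on thick filaments pull on actin filaments, and troponin and tropomyosin switch the filaments on when calcium is released from the sarcoplasmic reticulum. Most of these proteins exist as fast and slow isoforms from separate genes, and some have developmental isoforms that are largely replaced after birth in limb muscle. Because a whole-organ sample mixes muscle with epithelium, connective tissue and infiltrating cells, fewer muscle cells and less muscle RNA per cell cannot be told apart.

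The libraries held 5094159 to 12108822 reads in the vehicle group and 3675479 to 8364227 in the OXA group. Values are normalized counts, that is, read counts after division by a factor for the size of each library. The level that corresponds to 3 reads was 1.56 to 4.29 normalized counts in the vehicle libraries and 2.13 to 5.43 in the OXA libraries, which covers counting error only. Of the 42 members, 40 had a mean of at least 5 normalized counts over the 10 libraries and were tested, and the slow genes Myh7 and Myl2 were below it. Calls were made with limma on log2(value + 1), so that fold changes are on that scale and understate the change of low genes, at a Benjamini-Hochberg adjusted p under 0.05 over all 14712 genes tested.

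Muscle content differed widely between libraries, most of all within the OXA group. It was summarized as a muscle factor, the median over 30 other striated muscle genes, none of them a member, of each gene's value relative to its geometric mean. In the vehicle libraries A1 to A5 the factor was 1.35, 1.53, 1.12, 1.37 and 0.949. In the OXA libraries C1, D1, D2, D3 and D4 it was 0.704, 1.81, 0.466, 1.33 and 0.417. D1 was thus above all vehicle libraries, D3 was inside their range, and C1, D2 and D4 were below all of them. The same 30 genes had a median log2 difference of -0.51 between OXA and vehicle, against -0.01 over all genes tested. Of them 5 fell and 0 rose in limma, where 14.2% of all genes fell and 15.7% rose. At an unadjusted p under 0.05 also 0 rose. Apobec2, a muscle member of the cytidine deaminase family (log2 fold change -1.42, SE 0.22, limma adjusted p 0.000359), and Cacng1, a subunit of the muscle calcium channel (-1.27, SE 0.28, limma adjusted p 0.00401), were both lower in each OXA library than in any vehicle library, as were 10.4% of all genes.

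The libraries also differed in how much signal the longest muscle transcripts gave. Ttn, which encodes the giant spring protein titin, reached 34.5, 38.9, 13.1, 32.5 and 8.89% of the counts of skeletal actin Acta1 in A1 to A5. In C1, D1, D2, D3 and D4 it reached 24.1, 42.6, 11.8, 30.8 and 16.6%. The low values, in A3, A5, D2 and D4, fell in both groups. Across 68 muscle genes the Spearman correlation between transcript length and a gene's deviation in a library was negative in those same 4 libraries, at -0.377, -0.304, -0.627 and -0.492, and positive in the other 6, from 0.0587 to 0.609. These correlations are descriptions, since the points of a library share its preparation and depth. Their part in the results was not tested, but the counts of called members, the called genes and the called ratios were also computed without those 4 libraries.

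**Figure D1:**
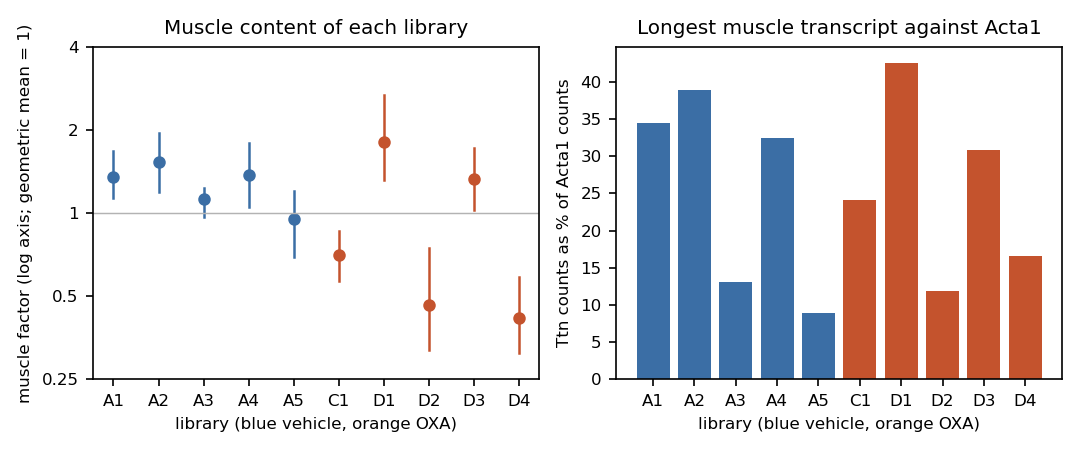
Left, the muscle factor of each library (point) on a log axis, with the 10th to 90th percentile of the 30 reference genes as a line. Right, Ttn counts as a percentage of Acta1 counts. Vehicle libraries are blue and OXA libraries orange; the OXA factors run from 0.417 in D4 to 1.81 in D1, and the vehicle factors from 0.949 to 1.53.

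On the deposited scale, 9 of the 40 tested members passed the test, or 22.5%, against 29.9% of all genes tested. The 3 that rose, Tnnt1, Tpm3 and Casq2, are all on the slow list. The 6 that fell were the fast genes Myh4, Tnni2, Myoz1 and Pvalb, the slow light chain Myl3 and the atrophy gene Fbxo32. Of all genes tested, 15.7% rose and 14.2% fell, so the members were not called more often than the rest of the table. Their median log2 fold change was -0.45, against -0.01 over all genes. The groups did not overlap for 3 of the 40 members (7.5%; 22.4% of all genes), with OXA above for Tpm3 (12% of all genes) and below for Pvalb and Fbxo32 (10.4% of all genes). The number that fell, 6, changed whichever library was left out: it was 17 without D1, 8 without D3, 3 without A1, A3, A4 or A5, and 2 without A2, C1, D2 or D4. With library totals in place of the deposited scaling the split was 4 higher and 3 lower, with quantile normalization 3 and 3, and with edgeR on the recovered reads 4 and 2.

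After each library was divided by its muscle factor, 4 of the 40 members were called (10%; 13.2% of all genes), and all 4, Tnnt1, Tpm3, Myoz2 and Casq2, were higher in OXA, as were 11.8% of all genes, and on the slow list. The scaling itself moved the median log2 fold change of all genes, in and outside muscle, from -0.01 to 0.62, and the shares of all genes called after scaling carry that shift. Members moved to a median of 0.15, beside 0.13 for the 30 reference genes, from which the factor was made. No member was lower in limma after scaling (1.4% of all genes), 1 was at an unadjusted p under 0.05 (Myh4), edgeR called 0 and DESeq2 called 1. The groups did not overlap for 9 members (22.5%; 9.67% of all genes), each with OXA above (8.51% of all genes; below, 1.16%): Casq1, Tnnt1, Tnnc1, Myoz2, Casq2, Actc1, Acta1, Tpm1 and Myog. With the log2 muscle factor as a covariate of the deposited values, where the median of all genes stayed at 0.02, 13 members were higher and 3 lower, or 16 of 40 in all, against 15.3% and 15.3% of all genes and 30.7% in either direction. The 13 were Tnnt1, Tpm3, Myoz2 and Casq2 with Myh1, Casq1, Tnni1, Tnnc1, Actc1, Tpm1, Ttn, Neb and Myog, and the 3 were Myh4, Pvalb and Fbxo32. limma draws a gene's spread toward that of all genes tested, also those outside muscle. Casq1 had scaled means of 894 ± 177 and 1654 ± 152 (SD, n = 5 each). Its SE was 0.44 in the scaled fit (limma adjusted p 0.170) and 0.15 with the covariate (limma adjusted p 0.000337). A member that did not pass after scaling is therefore not shown to be unchanged.

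**Figure D2:**
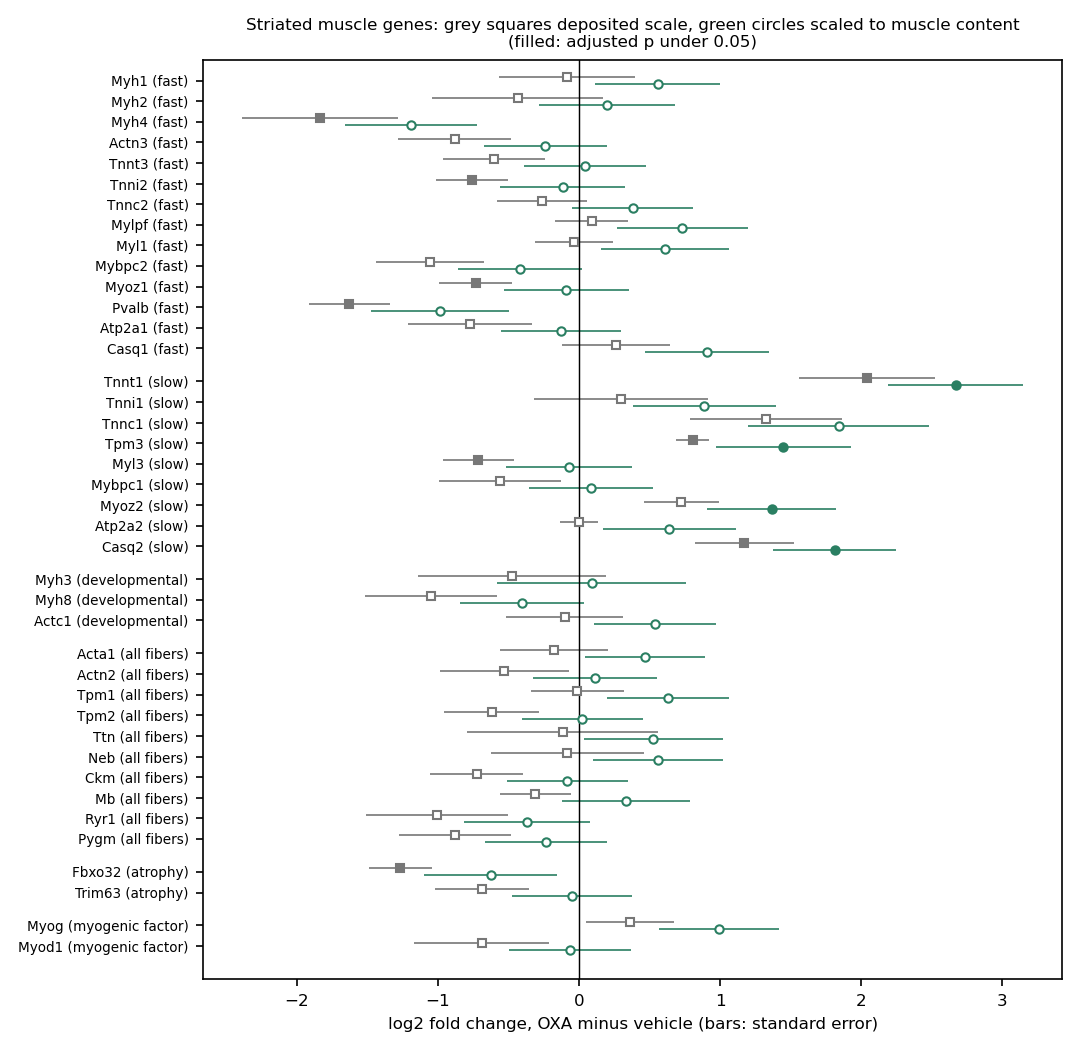
Log2 fold change, OXA minus vehicle, of the 40 tested members with its standard error, grouped by fiber type or role, on the deposited scale (grey squares) and after scaling to muscle content (green circles); filled symbols passed the test. Slow genes hold all 4 filled green circles, and the fast genes hold 4 of the filled grey squares at negative values.

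The isoforms were therefore also compared within a library, as the log2 ratio of 2 genes, which does not depend on library scaling beyond the added 1, nor on muscle content where both genes are read from muscle alone. Of 13 such ratios, 7 differed between the groups by an exact two-sided permutation test over all arrangements of the libraries into groups of 5, with adjustment over the 13; 4 were higher in OXA and 3 lower. The smallest p this design allows is 0.00794. All but 1 of the 7 reached it, with no overlap between the groups (adjusted exact p 0.0172 for each). They were the slow-to-fast ratios of troponin T, troponin C, calsequestrin and calsarcin, which were higher, and Myh8 to Myh1 and Myl3 to Myl1, which were lower. The last, Myh4 to Myh1, was lower with an adjusted exact p of 0.0295. Without the 3 shallowest libraries, A5, D2 and D4, 0 of the 13 passed, because the smallest exact permutation p of that design, 0.0286, was reached by 6 ratios and became 0.0619 after adjustment.

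**Figure D3:**
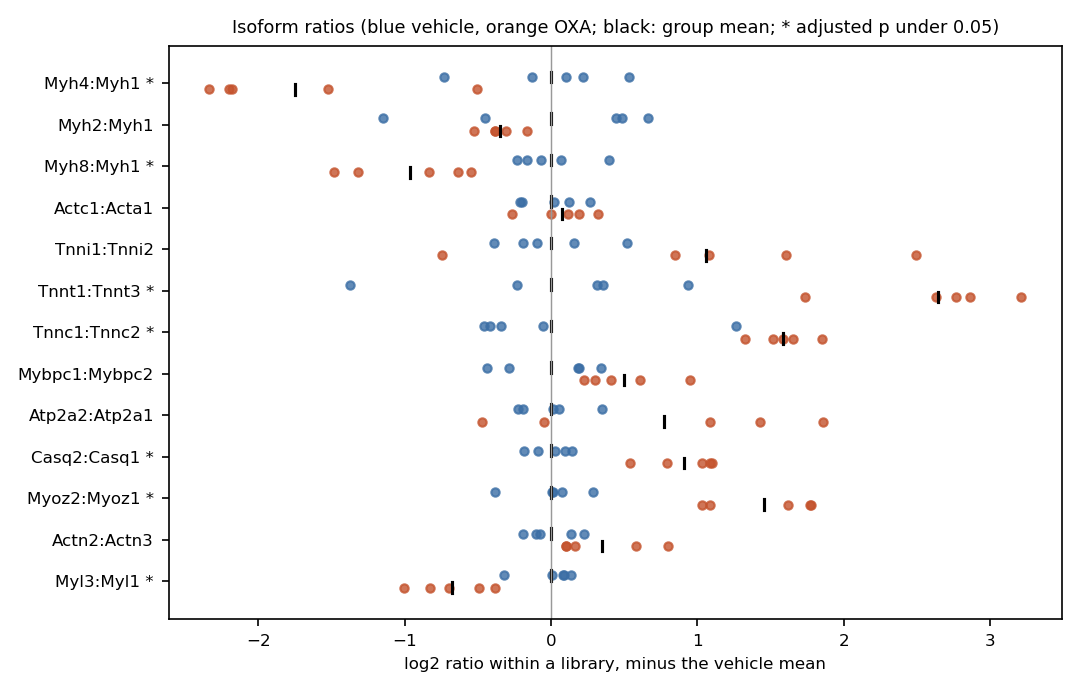
Log2 ratio of 2 isoforms within each library, minus the vehicle mean of that ratio, for 13 pairs; blue points are vehicle and orange points OXA libraries, black ticks are group means and stars mark an adjusted exact p under 0.05. The orange points of Tnnt1:Tnnt3, Casq2:Casq1 and Myoz2:Myoz1 lie wholly to the right of the blue ones, and those of Myh8:Myh1 and Myl3:Myl1 wholly to the left.

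Myosin heavy chains are the motors of the thick filament and set much of a fiber's speed. The fast and developmental chains measured here lie in a row on the forward strand of chromosome 11 (GRCm38), Myh3 at chr11:67078300-67102591, Myh2 at chr11:67171027-67197817, Myh1 at chr11:67200052-67224875, Myh4 at chr11:67238029-67260746 and Myh8 at chr11:67277124-67308934. Because Myh1, Myh4 and Myh8 were the 3 most abundant and moved apart, the 250 bases before their start sites are shown. Sequences are from RefSeq (GRCm38.p6) and run 5′ to 3′ on the gene's strand, and capitals mark matches to the MEF2 motif, the binding sequence of the MEF2 factors of muscle, and to the E-box CANNTG, the sequence of myogenic factors such as MyoD. The windows are chr11:67199852-67200101, chr11:67237562-67237811 and chr11:67276874-67277123, all on the forward strand. Start sites are those of RefSeq. That of Myh8 matches the gene start given above, and those of Myh1 and Myh4 do not.
Myh1: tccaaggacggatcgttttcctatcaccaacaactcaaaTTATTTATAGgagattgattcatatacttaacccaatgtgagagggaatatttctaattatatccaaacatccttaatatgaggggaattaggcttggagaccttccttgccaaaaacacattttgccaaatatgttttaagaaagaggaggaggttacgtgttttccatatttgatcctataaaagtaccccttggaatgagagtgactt
Myh4: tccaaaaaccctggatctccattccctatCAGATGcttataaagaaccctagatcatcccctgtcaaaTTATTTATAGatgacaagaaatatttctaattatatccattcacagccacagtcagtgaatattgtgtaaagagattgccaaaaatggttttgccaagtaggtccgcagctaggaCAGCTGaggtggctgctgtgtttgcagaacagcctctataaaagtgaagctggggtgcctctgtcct
Myh8: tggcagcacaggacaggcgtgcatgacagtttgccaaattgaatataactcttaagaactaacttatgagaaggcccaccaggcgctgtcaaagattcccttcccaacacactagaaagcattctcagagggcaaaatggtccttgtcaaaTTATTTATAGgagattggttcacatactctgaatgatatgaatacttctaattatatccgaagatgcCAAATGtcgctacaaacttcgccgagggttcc
All 3 windows hold the same 10 letters, TTATTTATAG, beginning 211, 182 and 99 bases before the start site of Myh1, Myh4 and Myh8, and neither the Myh2 nor the Myh3 window held a MEF2 match. The table of promoters covered 34 of the 42 members with 41 windows, each of 250 bases before and 50 after a start. Over these whole windows and on both strands, a MEF2 match was present in 17.1% of member windows and in 3.19% of all 32851 windows. For the E-box CANNTG the shares were 90.2% and 72.3%, for its form CAGCTG 46.3% and 16.3%, for CATTCC, the M-CAT sequence, 26.8% and 14.7%, for TATAAA 26.8% and 13.6%, and for the CArG box 9.76% and 1.63%. CAGCTG is 1 form of CANNTG, so these counts overlap, and a match is a description of letters and not a site in use.

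The perinatal chain Myh8 gave the largest share of myosin heavy chain counts in every library. The 3 main transcripts are 6081 (Myh1), 6016 (Myh4) and 6149 (Myh8) bases long, so that shares of counts are close to shares per length. Myh8 made up 64.9, 71.0, 63.9, 63.6 and 63.6% of the summed counts of Myh1, Myh2, Myh3, Myh4, Myh7 and Myh8 in A1 to A5, and 59.2, 47.8, 50.6, 59.3 and 61.1% in the OXA libraries C1 and D1 to D4. The share was lower in each OXA library than in any vehicle library, with means of 65.4% ± 3.20 (SD, n = 5) and 55.6% ± 5.98 (SD, n = 5). Myh1, the chain of fast type IIx fibers, went as a share from 22.9% ± 3.01 to 38.0% ± 6.99 (SD, n = 5 each), again without overlap. Myh4, the chain of the fastest type IIb fibers, went from 11.1% ± 2.75 to 5.68% ± 2.57 (SD, n = 5 each), with D3 at 10.1% inside the vehicle range of 7.60 to 14.7%. Myh2, the chain of type IIa fibers, stayed at 0.577% ± 0.291 and 0.674% ± 0.179 (SD, n = 5 each). These shares depend on one another, and the tests are those of the ratios.

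**Figure D4:**
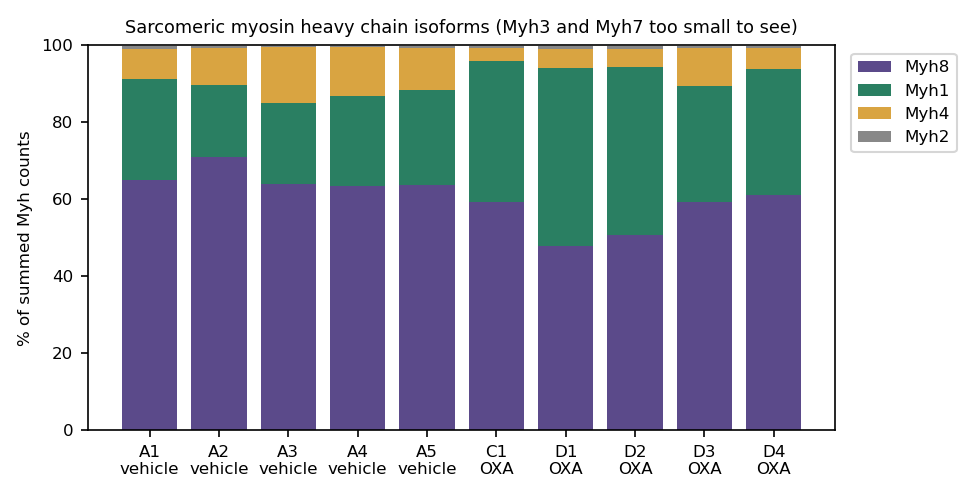
Each bar is 1 library, and the coloured parts are the shares of Myh8, Myh1, Myh4 and Myh2 in the summed counts of 6 sarcomeric myosin heavy chain genes, in percent. The green part, Myh1, is 18.7 to 26.4% in the vehicle libraries and 30.1 to 46.4% in the OXA libraries.

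Myh4 fell in OXA. Its normalized counts were 2144, 3546, 2830, 3422 and 1613 in A1 to A5 and 394, 1936, 301, 2716 and 329 in C1 and D1 to D4. C1, D2 and D4 were far below all vehicle libraries, and D1 and D3 were within the vehicle range. The log2 fold change was -1.83 (SE 0.55, limma adjusted p 0.0224) on the deposited scale and -1.19 (SE 0.47, limma adjusted p 0.0884) after muscle scaling, and on the deposited scale 9 of 22 alternatives, edgeR and DESeq2 included, lost the call. Relative to Myh1, its log2 ratio was -1.07 ± 0.472 in vehicle and -2.82 ± 0.762 in OXA (SD, n = 5 each), a difference of -1.75 (exact permutation p 0.0159). Among the OXA libraries D3, at -1.58, was the only one above the lowest vehicle library, A1, at -1.80.

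Myh1 varied with the muscle factor within the OXA group and was called only with that factor as a covariate. It had 7454, 6927, 4092, 6176 and 3692 normalized counts in A1 to A5 and 4175, 18638, 2864, 8099 and 1989 in C1 and D1 to D4, with D1 highest of all 10 libraries and D4 lowest. Its log2 fold change was -0.08 (SE 0.48, limma adjusted p 0.913) before and 0.56 (SE 0.44, limma adjusted p 0.405) after scaling, so that the sign depended on the scaling. Scaled to muscle content, the OXA libraries C1, D1, D2 and D3 (5928, 10322, 6151 and 6096) were above the highest vehicle library, A1 (5509), and D4 (4767) was not. With the muscle factor as a covariate the log2 fold change was 0.80 (SE 0.16, limma adjusted p 0.0018).

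Myh8 had 18308, 26264, 12333, 16922 and 9490 normalized counts in the vehicle libraries and 6743, 19187, 3304, 15965 and 3689 in the OXA libraries. The low OXA libraries were again C1, D2 and D4. Its log2 fold change of -1.05 (SE 0.47) did not pass the test (limma adjusted p 0.107), and scaled it was -0.41 (SE 0.44, limma adjusted p 0.543). Against Myh1, the log2 ratio was 1.53 ± 0.248 in vehicle and 0.56 ± 0.417 in OXA (SD, n = 5 each), a difference of -0.96 with the lowest vehicle library at 1.30 and the highest OXA library at 0.98 (exact permutation p 0.00794).

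Myh2 ranged from 40.9 to 266 normalized counts in vehicle (median 113) and from 30.3 to 376 in OXA (median 75.6), and its ratio to Myh1 did not differ (difference -0.35, adjusted exact permutation p 0.404). Myh3, the embryonic chain, was low throughout, at 1.43 to 21.6 in vehicle and 1.53 to 19.2 in OXA. The slow chain Myh7 was listed at 0 in 3 vehicle and 2 OXA libraries and reached at most 0.97 in vehicle and 10.7 in OXA, in D1. Of 4 further myosin heavy chain genes, Myh13, Myh14, Myh15 and Myh7b, Myh15 was at 0 in all 10 libraries and Myh13 had means of 0 and 0.192. All 4 together summed to 141 to 197 normalized counts in vehicle and 85.5 to 170 in OXA. With Myh15 and Myh13 at or near 0, this sum came from Myh7b and Myh14 and is not a measure of eye or laryngeal muscle. Only 1 of the 4 was tested, and it did not pass. Reads of these closely related genes could have been divided between copies by the authors' counting, so their levels are uncertain to that extent.

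The light chains sit on the neck of the myosin head. Myl3, a slow and ventricular essential light chain, had 17704, 17743, 17783, 16191 and 16690 normalized counts in A1 to A5 and 7821, 17618, 9199, 13963 and 7193 in C1 and D1 to D4. Only D1 reached the vehicle range. That is a log2 fold change of -0.71 (SE 0.25, limma adjusted p 0.0460), lost in 16 of 22 alternatives, and -0.07 (SE 0.44, limma adjusted p 0.928) after muscle scaling.

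The fast essential light chain Myl1 had 13581, 12932, 17131, 11721 and 11685 normalized counts in vehicle and 9773, 24074, 14205, 14021 and 7805 in OXA. Its log2 fold change was -0.03 (SE 0.28, limma adjusted p 0.939). Myl3 against Myl1 gave a log2 ratio of 0.37 ± 0.185 in vehicle and -0.30 ± 0.25 in OXA (SD, n = 5 each), a difference of -0.68 with no overlap (exact permutation p 0.00794). This slow-to-fast ratio moved the opposite way to those of the troponins. Mylpf, the fast regulatory light chain, had a log2 fold change of 0.09 (SE 0.26, limma adjusted p 0.824), and the slow regulatory chain Myl2 was listed at 0 in all libraries but D1, which had 21.3.

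The troponin complex is the calcium switch of the thin filament. Tnnt1, slow troponin T, had the largest rise of the members called, at 75, 35.2, 13.6, 49.9 and 37.2 normalized counts in A1 to A5 and 134, 495, 152, 128 and 68.6 in C1 and D1 to D4. D1 was highest and D4, the lowest OXA library, was below A1. Its log2 fold change was 2.04 (SE 0.48, limma adjusted p 0.00574) and after scaling 2.67 (SE 0.48, limma adjusted p 0.000182), where all 5 OXA libraries were above all 5 vehicle libraries. Both calls were kept in every alternative run, 22 on the deposited and 25 on the scaled values. The 250 bases before its RefSeq start, chr7:4515976-4516225 on the reverse strand, hold an E-box in capitals and no MEF2 match. They lie within the gene's bounds in the deposited table, chr7:4504270-4516382, so another start may be in use.
Tnnt1: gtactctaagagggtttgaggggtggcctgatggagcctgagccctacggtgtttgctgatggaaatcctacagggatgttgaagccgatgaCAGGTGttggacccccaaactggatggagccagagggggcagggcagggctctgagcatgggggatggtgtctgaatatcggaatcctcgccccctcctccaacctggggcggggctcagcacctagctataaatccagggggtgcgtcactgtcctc
Tnnt3, fast troponin T, had 28265, 30188, 26897, 28276 and 21831 normalized counts in vehicle and 13121, 38042, 15981, 27614 and 7995 in OXA, and did not pass the test (log2 fold change -0.60, SE 0.36, limma adjusted p 0.229). The log2 ratio of Tnnt1 to Tnnt3 was -9.47 ± 0.870 in vehicle and -6.83 ± 0.551 in OXA (SD, n = 5 each). The difference of 2.64 was the largest of the 13 ratios, and the lowest OXA library, D3 at -7.74, was above the highest vehicle library, A1 at -8.54 (exact permutation p 0.00794). Their transcripts are of like length, 1059 and 1079 bases.

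Tnnc1, slow troponin C, was close to the limit of detection. It had 2.05, 9, 1.95, 2.60 and 1.43 normalized counts in A1 to A5 and 5.34, 15.6, 7.24, 14.4 and 4.79 in C1 and D1 to D4. The vehicle libraries A1, A3 and A5 were under the level of 3 reads, and no OXA library was. It did not pass the test on either scale (log2 fold change 1.32, SE 0.54, limma adjusted p 0.0787, and scaled 1.84, SE 0.64, limma adjusted p 0.0520). It lies within Nisch, a gene on the opposite strand with a mean of 478 normalized counts, and the sources used here do not give the strand setting of the count, so reads of the pair may not be separable.

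Tnnc2, fast troponin C, had 41915, 45195, 44083, 40628 and 35254 normalized counts in vehicle and 27490, 63102, 28460, 46367 and 21003 in OXA (log2 fold change -0.26, SE 0.32, limma adjusted p 0.570). The log2 ratio of Tnnc1 to Tnnc2 rose by 1.59, from -13.4 ± 0.725 to -11.8 ± 0.191 (SD, n = 5 each; exact permutation p 0.00794), with the highest vehicle library, A2, at -12.14 and the lowest OXA library, C1, at -12.08. Being built on the few reads of Tnnc1, this ratio also depends on the added 1.

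Tnni2, fast troponin I, fell, with 14859, 15006, 16256, 13405 and 13108 normalized counts in vehicle and 6192, 14577, 7546, 11667 and 5779 in OXA, where only D1 was inside the vehicle range. The log2 fold change was -0.76 (SE 0.26, limma adjusted p 0.0379), lost in 15 of 22 alternatives, and scaled -0.12 (SE 0.44, limma adjusted p 0.877). Slow troponin I, Tnni1, had means of 24.3 ± 8.68 and 46.7 ± 51.8 normalized counts (SD, n = 5 each), the second drawn up by D1 at 136, and neither it (limma adjusted p 0.750) nor its ratio to Tnni2 (difference 1.06, adjusted exact permutation p 0.124) passed.

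Tropomyosin lies along actin and is moved by troponin. Tpm3, the slow-fiber tropomyosin gene, had 1595, 1362, 1377, 1421 and 1604 normalized counts in A1 to A5 and 2582, 2748, 2417, 2634 and 2476 in C1 and D1 to D4. The groups were wide apart, and the OXA values kept between 2417 and 2748 while the muscle factors of those libraries ran from 0.417 to 1.81. On the deposited scale its log2 fold change was 0.81 (SE 0.12, limma adjusted p 0.000201), kept in all 22 alternatives. After scaling it was 1.45 (SE 0.48, limma adjusted p 0.0412), lost in 12 of 25. Tpm3 also makes short tropomyosins in cells that are not muscle, and related copies exist, so its counts do not stand for slow fibers alone. Tpm1 and Tpm2, found in most striated fibers, had log2 fold changes of -0.011 (SE 0.33, limma adjusted p 0.984) and -0.62 (SE 0.33, limma adjusted p 0.180).

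Actins did not pass the test. Skeletal actin Acta1 had a log2 fold change of -0.17 (SE 0.38, limma adjusted p 0.765) and cardiac actin Actc1, the main actin of the embryo's skeletal muscle, -0.10 (SE 0.42, limma adjusted p 0.875). Both were at high levels, from 24544 to 33003 (Acta1) and from 8512 to 14414 (Actc1) normalized counts in vehicle and from 12104 to 60003 and from 4824 to 27271 in OXA, lowest in D4 and highest in D1. The ratio of Actc1 to Acta1 differed by 0.07 (adjusted exact permutation p 0.627). The Z-disc crosslinkers Actn2 (log2 fold change -0.53, SE 0.46, limma adjusted p 0.413) and Actn3, the fast one (-0.88, SE 0.40, limma adjusted p 0.114), and their ratio (difference 0.35, adjusted exact permutation p 0.103) were not called either.

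Among the other Z-disc members, the calsarcins Myoz1 and Myoz2 tether the phosphatase calcineurin in fast and in slow fibers. Myoz1 fell: it had 1768, 1815, 1945, 1807 and 1604 normalized counts in vehicle and 792, 1805, 914, 1755 and 624 in OXA, with D1 and D3 inside the vehicle range (log2 fold change -0.73, SE 0.26, limma adjusted p 0.0470, lost in 16 of 22 alternatives). Myoz2 had 225, 199, 204, 144 and 169 in vehicle and 176, 580, 328, 375 and 222 in OXA. Its log2 fold change of 0.73 (SE 0.27) missed the threshold (limma adjusted p 0.0537), and after scaling it was 1.37 (SE 0.45, limma adjusted p 0.0422) with no overlap, a call lost in 13 of 25 alternatives. In the ratio of Myoz2 to Myoz1 every OXA library was above every vehicle library, at -1.80 ± 0.367 and -3.25 ± 0.242 (SD, n = 5 each), a difference of 1.46 (exact permutation p 0.00794).

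Calsequestrin stores calcium in the sarcoplasmic reticulum, Casq1 mainly in fast and Casq2 in slow and cardiac muscle. Casq2 had 329, 244, 263, 234 and 192 normalized counts in A1 to A5 and 459, 1562, 371, 713 and 292 in C1 and D1 to D4. D1 and D3, rich in muscle, were highest, and D4 was the only OXA library below a vehicle library, A1. The log2 fold change was 1.17 (SE 0.35, limma adjusted p 0.0220) on the deposited scale, lost without A5 and without D3 at a limma adjusted p of up to 0.0545, and 1.81 (SE 0.44, limma adjusted p 0.00430) after scaling, kept in 24 of 25 alternatives. Scaled to muscle content, the 5 vehicle libraries held 159 to 243 and the 5 OXA libraries 536 to 865 (range over libraries).

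Casq1 had 1427, 1228, 1236, 935 and 794 normalized counts in vehicle and 1172, 3381, 773, 2169 and 602 in OXA (log2 fold change 0.26, SE 0.38, limma adjusted p 0.640; scaled 0.90, SE 0.44, limma adjusted p 0.170). The log2 ratio of Casq2 to Casq1 was -2.14 ± 0.136 in vehicle and -1.23 ± 0.242 in OXA (SD, n = 5 each), a difference of 0.91 without overlap (exact permutation p 0.00794). Casq2 and Myoz2 were called after scaling together with Tnnt1, so their 250 bases before the start are shown, chr3:102086165-102086414 on the forward and chr3:123034988-123035237 on the reverse strand, each with 1 MEF2 match and 2 E-boxes in capitals.
Casq2: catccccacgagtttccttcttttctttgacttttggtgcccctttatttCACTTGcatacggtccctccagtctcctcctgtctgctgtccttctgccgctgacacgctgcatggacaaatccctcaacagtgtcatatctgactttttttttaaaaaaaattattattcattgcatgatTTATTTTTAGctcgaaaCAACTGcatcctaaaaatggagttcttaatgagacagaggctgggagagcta
Myoz2: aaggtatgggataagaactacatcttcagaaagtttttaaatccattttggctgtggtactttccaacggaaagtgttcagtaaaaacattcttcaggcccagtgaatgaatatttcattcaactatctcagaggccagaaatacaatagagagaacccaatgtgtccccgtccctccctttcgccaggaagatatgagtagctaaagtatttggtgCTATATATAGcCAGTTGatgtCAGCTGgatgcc
The MEF2 match begins 69 bases before the RefSeq start of Casq2 and 33 before that of Myoz2. The Myoz2 window overlaps the gene's bounds in the deposited table, which end at chr3:123035015.

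**Figure D5:**
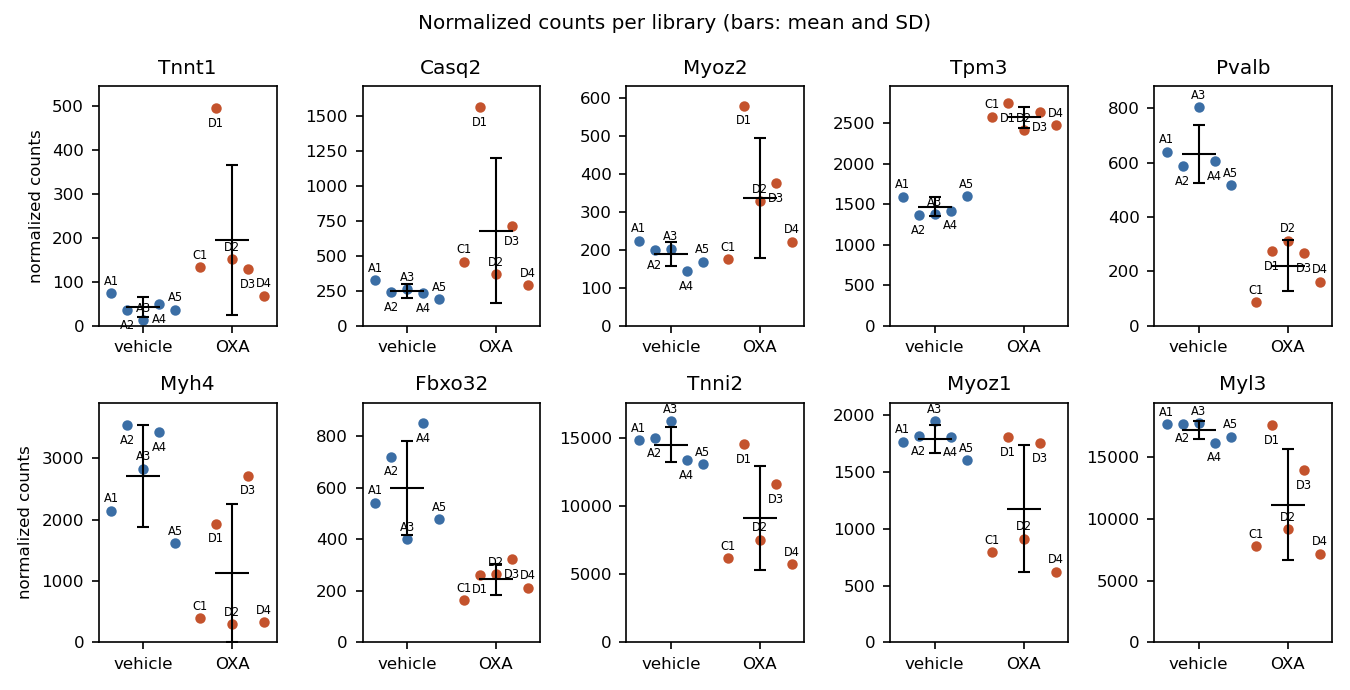
Normalized counts of the 10 called members in each library, with the mean and SD of each group as a black bar; axes start at 0. For Tpm3, Pvalb and Fbxo32 the vehicle and OXA points do not overlap, and for the other 7 at least 1 OXA library is inside the vehicle range or beyond it on the other side.

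The calcium pumps that refill the reticulum were not called: Atp2a1, the fast pump, had a log2 fold change of -0.77 (SE 0.44, limma adjusted p 0.203), and Atp2a2, the slow pump, which is also made in cells outside muscle, one of -0.000845 (SE 0.14, limma adjusted p 0.997). Their ratio differed by 0.77 (adjusted exact permutation p 0.178). Within the OXA group this log2 ratio was -3.31, -2.97 and -2.54 in the muscle-poor libraries C1, D2 and D4 and -4.86 and -4.44 in D1 and D3. Ryr1, the calcium release channel, had -1.01 (SE 0.50, limma adjusted p 0.147).

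Pvalb, parvalbumin, which binds calcium in the fastest fibers, fell clearly. It had 640, 587, 804, 606 and 517 normalized counts in A1 to A5 and 87.8, 274, 313, 267 and 163 in C1 and D1 to D4, so that the highest OXA library was below the lowest vehicle library. The log2 fold change was -1.63 (SE 0.29, limma adjusted p 0.000811), kept in all 22 alternatives. Scaled to muscle content it was -0.99 (SE 0.49, limma adjusted p 0.179), with the muscle factor as a covariate -1.48 (SE 0.31, limma adjusted p 0.00218), and it was called lower in scaled values without A5, D2 and D4. Pvalb is also made by some neurons.

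The myosin-binding protein C genes Mybpc1 (slow; log2 fold change -0.56, SE 0.43, limma adjusted p 0.353) and Mybpc2 (fast; -1.06, SE 0.38, limma adjusted p 0.0511) and their ratio (difference 0.50, adjusted exact permutation p 0.0645) did not pass. The giant proteins Ttn and Neb, which span the sarcomere and the thin filament, ranged from 2182 to 12834 and from 1170 to 4282 normalized counts in vehicle and from 2010 to 25561 and from 1003 to 8558 in OXA, and had log2 fold changes of -0.12 (SE 0.68) and -0.08 (SE 0.54). Creatine kinase Ckm had a log2 fold change of -0.73 (SE 0.33, limma adjusted p 0.112), glycogen phosphorylase Pygm -0.88 (SE 0.40, limma adjusted p 0.113) and the oxygen store myoglobin, Mb, -0.31 (SE 0.25, limma adjusted p 0.379). Thus 0 of the 10 genes shared by all fibers passed the limma test, against 29.9% of all genes tested. Their median was -0.42, and 2, Ckm and Pygm, had an unadjusted p under 0.05.

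Fbxo32, or atrogin-1, a ubiquitin ligase induced in wasting muscle, fell. It had 541, 720, 401, 851 and 478 normalized counts in vehicle and 164, 262, 264, 324 and 212 in OXA, with no overlap. This was a log2 fold change of -1.27 (SE 0.22, limma adjusted p 0.000749), kept in all 22 alternatives. It was -0.62 (SE 0.47, limma adjusted p 0.379) after scaling, and -1.10 (SE 0.22, limma adjusted p 0.00194) with the muscle factor as a covariate. The other atrophy ligase, Trim63 (MuRF1), had a log2 fold change of -0.69 (SE 0.33, limma adjusted p 0.133). Of 20 other genes of muscle proteolysis, autophagy and their stress and glucocorticoid response, 12 fell and 0 rose in limma on the deposited scale, where 14.2% of all genes fell and 15.7% rose (median -0.55; 0 rose at an unadjusted p under 0.05), led by Klf15 (log2 fold change -1.64, SE 0.21, limma adjusted p 7.9e-05) and Sesn1 (-1.07, SE 0.14, limma adjusted p 9.9e-05). Many of these 20 are active in all tissues, and after scaling 0 passed, with 1 higher and 2 lower at an unadjusted p under 0.05. With the muscle factor as a covariate 11 of the 20 were lower and 0 higher, against 15.3% of all genes in each direction.

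The myogenic factors Myog and Myod1 switch on muscle genes in precursors and in denervated fibers. Myog had 55.0 to 86.3 normalized counts in vehicle (median 63.3) and 49.5 to 158 in OXA (median 65.2), with a log2 fold change of 0.36 (SE 0.31, limma adjusted p 0.409) and, scaled, 0.99 (SE 0.43, limma adjusted p 0.121) without overlap. Myod1 had 70.1 to 115 in vehicle (median 104) and 27.1 to 247 in OXA (median 38.2; log2 fold change -0.69, SE 0.48, limma adjusted p 0.295). The counts of the related lists that follow stand beside 15.7% of all genes tested higher and 14.2% lower on the deposited scale. Of 9 tested satellite-cell and regeneration genes, Mstn, or myostatin, an inhibitor of muscle growth, rose (log2 fold change 0.84, SE 0.27, limma adjusted p 0.0279), and the other 8 did not pass, Myf5 with 0.57 (SE 0.28, limma adjusted p 0.147). Of 14 tested genes of denervation and the nerve-muscle junction, Gadd45a (-1.29, SE 0.22, limma adjusted p 0.000573), Cdkn1a (-0.68, limma adjusted p 0.00202) and the acetylcholine receptor subunit Chrna1 (-1.27, limma adjusted p 0.0181) fell and Runx1, which is also a gene of blood cells, rose (0.88, SE 0.21, limma adjusted p 0.00654); the last pair is outside the naming rule and was named after its values were seen. Of 14 tested regulators of fiber type, 0 passed in limma; at an unadjusted p under 0.05, 1 was higher and 2 lower, Sox6 (-0.64, SE 0.23, limma adjusted p 0.0519) and Ppara (-1.76, SE 0.64, limma adjusted p 0.0523).

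By list, the fast genes on the deposited scale had 0 of 14 higher and 4 lower in limma, with a median log2 fold change of -0.67 and 0 higher at an unadjusted p under 0.05, beside 15.7% higher and 14.2% lower and a median of -0.01 over all genes. The slow genes had 3 of 9 tested higher and 1 lower, with a median of 0.73. After muscle scaling the medians were -0.02 and 1.37, beside 0.13 over the 30 reference genes and 0.62 over all genes. Of all genes 11.8% were higher and 1.4% lower. In limma 4 slow genes were higher and 0 fast genes were called in either direction. Among the fast genes 1 was higher (Casq1) and 1 lower (Myh4) at an unadjusted p under 0.05. With the muscle factor as a covariate, 2 fast genes were higher and 2 lower, and 6 slow genes were higher and 0 lower, beside 15.3% of all genes in each direction. Of the 3 developmental genes 0 passed on either scale in limma, and 1 was higher with the covariate. Among them 1, Myh8, was lower at an unadjusted p under 0.05 on the deposited scale. The slow genes did not move as a block, since Myl3 fell on the deposited scale while Mybpc1 and Atp2a2 did not pass. Among the 4 slow genes called after scaling, Tpm3 lost the call in 12 of 25 alternatives and Myoz2 in 13. The OXA counts of Tpm3, 2417 to 2748 before scaling, did not follow the muscle factors, 0.417 to 1.81.

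Other cell types were read through their own markers. On the deposited scale 14.2% of all genes tested fell in limma and 15.7% rose, and the counts below are to be read beside these shares. Of 9 tested smooth muscle genes 3 fell, Tagln (-1.06, SE 0.20, limma adjusted p 0.00131), Cnn1 (-1.40, SE 0.27, limma adjusted p 0.00164) and Lmod1 (-1.73, SE 0.34, limma adjusted p 0.00176). The 9 had a median log2 fold change of -0.88, with 0 above zero and 7 lower at an unadjusted limma p under 0.05. The summed level of the 10 listed genes was 11149 to 26214 normalized counts in vehicle and 8085 to 14279 in OXA. Of 5 tested cardiac genes 1 rose and 1 fell. Nppb, a natriuretic peptide, was at 0 in 4 vehicle libraries and 1.43 in A5, against 9.16, 5.69, 12.7, 2.87 and 27.1 in C1 and D1 to D4. Its vehicle values were under the level of 3 reads, and D3 was at that level. Nppb reached the mean needed for testing only through its OXA values, so its rise is a description and not a free test. Myl7, an atrial light chain, fell (-1.12, SE 0.26, limma adjusted p 0.00455). The defining cardiac genes Myh6 and Nppa were at 0 in all 10 libraries, and the 8 listed cardiac genes summed to 575 to 820 in vehicle and 289 to 899 in OXA. Brown fat markers had 0 of 4 tested called in limma (2 higher at an unadjusted p under 0.05, Adipoq and Ppargc1b), with Ucp1 at means of 0 and 0.984. Markers of thyroid, cartilage and trachea were at or near 0 except the airway gene Scgb1a1, which fell from a mean of 41.8 to 11.8 (limma adjusted p 0.0126). The part of these cells in the slow and fast gene values was not tested.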

How the data were processed

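The deposited table holds a signal per gene and library that the authors made by dividing gene counts by a size factor and rounding to 2 decimals; this was read off the values. All values (100%) came out as whole multiples of 1 read within a tolerance of 0.006, and on the recovered reads edgeR called 4383 genes, DESeq2 4876 and limma on the deposited values 4394. The submitters' processing notes name the aligners Bowtie2 2.2.6 and TopHat2 2.1.0, HTSeq 0.11.2 for counting reads, DESeq2 1.18.1, the read trimmers cutadapt 1.10 and Trim Galore, FastQC 0.11.5 for read quality, and GRCm38 as the build, with no order or settings.

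Genes with a mean of at least 5 were fitted with limma 3.58.1 (R 4.3.3; trend, lmFit, eBayes) on log2(value + 1), OXA against vehicle, with Benjamini-Hochberg adjustment over all of them. edgeR was 4.0.16 and DESeq2 1.42.0. The fit was repeated on values divided by the muscle factor, from 30 reference genes with a mean of at least 20 (Hjv is Hfe2 in the table), and with that factor as a covariate. Isoform ratios, log2((a + 1)/(b + 1)), were tested by exact permutation, written out in Python 3.11.15 with numpy 2.4.6. Spearman correlations were computed with scipy 1.17.1. The fits were tested on simulated data.

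The members and lists were chosen with earlier results of these data known. Every member is reported, with values per library for those called, for each Myh gene and for both genes of a called ratio, and other lists by up to 2 tested genes of smallest p. Beyond that rule, all 3 smooth muscle genes that fell and the denervation pair marked above were named. So were some genes at or near 0 or given only in a sum. Library numbers shared by the groups (A1 with D1 and so on) were not used as pairs in the main tests. Correlations of deviations between same-numbered libraries were 0.19, -0.23, -0.13 and 0.012. Libraries of unlike number were not compared, so these values cannot decide whether the numbers mark pairs. Alternatives were another pseudocount, filter, scaling or tool, single libraries left out, other muscle factors, and 2 sets of libraries left out together, 1 of them, without A3, A5, D2 and D4, chosen after seeing the data.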

Additional observations from a re-analysis of the deposited data

Results flagged for a closer look

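Of 108 groups of 5 values examined among the members and their ratios, 7 held a library set apart from the other 4 by more than Dixon's critical share of 0.71 of the range, where chance sets apart about 1 group in 20. Library D1, the OXA library richest in muscle, was set apart upward for slow troponin T, Tnnt1 (495.4 normalized counts), slow troponin I, Tnni1 (136.5), and the myogenic factor Myod1 (247.4). Vehicle library A3 was set apart upward for the fast regulatory light chain Mylpf (28150 normalized counts) and downward for the log2 ratio of Myl3 to Myl1 (0.05387). Vehicle library A2 was set apart upward for slow troponin C, Tnnc1 (9 normalized counts), and so for the log2 ratio of Tnnc1 to Tnnc2 (-12.14).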

How the results depend on the processing

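Tnnc1, Myh3, Myh7 and Myl2 had values under the level of 3 reads in some libraries, and muscle content differed widely within the OXA group. The part of depth and muscle content in the results was not tested. None of the called genes and ratios changed direction in any alternative run. Tnnt1, Tpm3, Pvalb and Fbxo32 kept their calls on the deposited scale in all 22 alternatives, and Tnnt1 after scaling in all 25. The number of members higher on the deposited scale, 3, stayed at 2 to 4. The number lower, 6, was 3 with no filter, 3 with library totals, 3 with quantile normalization and 2 with edgeR. It was 2 without A5, D2 and D4 and 2 without A3, A5, D2 and D4. Leaving out 1 library at a time gave 2 to 17 lower, 17 without D1 and 8 without D3. After muscle scaling, the 4 higher members were 7 with DESeq2, 2 with a factor from the shared members, 13 with the factor as a covariate, 2 without A5, D2 and D4, 2 without A3, A5, D2 and D4, and 2 to 6 with 1 library left out. The 0 lower members were 1 with DESeq2, 1 with a factor from the summed reference, 3 with the covariate, 1 without A5, D2 and D4, 1 without A3, A5, D2 and D4, and 0 to 1 with 1 library left out. With a replicate block over the shared numbers (A1 to A4 with D1 to D4, without A5 and C1; not run for the ratios), 2 members were lower and 4 higher on the deposited scale, and 1 was higher and 0 lower after scaling. The cause of these changes was not tested, apart from the fewer libraries in some. Library totals moved the median log2 fold change of all genes from -0.01 to 0.11. The 7 ratios were 7 or 8 with another pseudocount or 1 library left out. Without A5, D2 and D4, 0 of the 13 passed (exact permutation p 0.0286 in 6 ratios, adjusted 0.0619), and without A3 as well the smallest exact permutation p is 0.1, so no ratio can pass.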
